A study of Rattus norvegicus with 11 samples.

Results

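The genes of the major histocompatibility complex (MHC) class II pathway were described in rat trigeminal ganglia (TRG), which house the somata of facial sensory neurons. The group was a list of 9 genes, given by name and drawn up with earlier results of these data known, with no measured value in its rule: RT1-Da, RT1-Db1, RT1-Ba, RT1-Bb, RT1-DMa, RT1-DMb, RT1-DOa, Cd74 and Ciita. All 9 were found on the array, each as 1 probe printed once, among 13903 named genes and 24684 probes. Male Wistar rats had received 50 μl of CFA, complete Freund's adjuvant made of killed mycobacteria in oil at 1 mg/ml, under the skin of the whisker pad on 1 side, and the ganglia were removed on day 7. The CFA group held the ganglia of the injected side of rats 1, 2, 3, 5, 6 and 8 (n = 6). The contralateral group held the opposite ganglia of rats 1, 2, 3, 5 and 6 (n = 5), so the control ganglia came from animals with the same inflammation and the same anaesthesia, and no uninjected rat was measured. Each ganglion was hybridised to 1 single-colour array. The sides were paired by the rat numbers in the labels. A check of the signals did not bear this pairing out, as given with the processing.

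MHC class II molecules are pairs of an alpha and a beta chain that present peptides, taken up from outside the cell, to CD4+ T cells. They are made mainly by macrophages, dendritic cells and B cells, and in sensory ganglia by resident macrophages. The invariant chain Cd74 fills the groove of a newly made molecule, cathepsins trim it, and the DM molecule exchanges the last fragment for a peptide. Ciita, the class II transactivator, is recruited to the promoters of these genes by factors bound to the X box (the RFX complex) and the Y box (NF-Y), and interferon-gamma induces it in many cells.

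The rat genes lie together on chromosome 20, apart from Cd74 and Ciita. The promoter table of RefSeq (build GRCr8, from 250 bases before to 50 bases after each start) held 7 of the 9 genes, RT1-DMb and Ciita not among them. The core of the Y box, GATTGG on either strand, stood in 6 of these 7 promoters and in 15.3% of all 27457 promoters of this table. The core of the X box, AGCAAC and GATG with any single base between them on either strand, stood in 2 of the 7 and in 0.0473% of all. The cores do not overlap each other. They are shown because they are the elements through which these genes are known to be switched on together. The stretches below are 70 bases long and read 5′ to 3′ on the strand of the gene, with both cores in capitals.
RT1-Da: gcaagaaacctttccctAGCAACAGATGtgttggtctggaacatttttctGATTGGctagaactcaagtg
RT1-Db1: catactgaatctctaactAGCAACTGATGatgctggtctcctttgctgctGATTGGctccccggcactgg
RT1-Ba: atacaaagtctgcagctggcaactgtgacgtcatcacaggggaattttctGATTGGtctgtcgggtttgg
RT1-Bb: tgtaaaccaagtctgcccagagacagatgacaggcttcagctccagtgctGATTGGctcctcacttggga
RT1-DMa: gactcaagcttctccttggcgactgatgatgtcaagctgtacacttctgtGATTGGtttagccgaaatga
RT1-DOa: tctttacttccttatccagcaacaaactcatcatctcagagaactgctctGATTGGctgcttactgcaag
These stretches lie at chr20:4515315-4515384 (plus strand) for RT1-Da, chr20:4560224-4560293 (minus strand) for RT1-Db1, chr20:4576963-4577032 (plus strand) for RT1-Ba, chr20:4604161-4604230 (minus strand) for RT1-Bb, chr20:4712381-4712450 (minus strand) for RT1-DMa and chr20:4758512-4758581 (minus strand) for RT1-DOa. The Y box core began 44 bases before the annotated start in RT1-Ba and 108 bases before it in RT1-DOa, with the other 4 genes between these. In RT1-Da and RT1-Db1 the X box core preceded it by 22 and 21 bases. The promoter of Cd74 held neither core in this window. A match is a description of the letters and not a measured binding site. Only these exact letters were sought, so forms of a core that differ from them were not counted.

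The signals are log2 values of the background-subtracted scanner signal, normalised so that all arrays share 1 distribution, and a difference of 1 is a fold change of 2. All 9 genes were well above background on all 11 arrays by the scanner software. The arrays lay on 5 slides scanned on 3 days. Only slide 2 held both sides, with CFA rat 1 and contralateral rats 5 and 6, so elsewhere side and slide cannot be told apart. Contralateral rat 3 lay on slide 1, contralateral rats 1 and 2 on slide 3, CFA rats 2 and 3 on slide 4, and CFA rats 5, 6 and 8 on slide 5. All arrays of rats 2 and 6 lay at position 2 of their slides and both of rat 3 at position 3. Both of rat 5 lay at position 1. Contralateral rat 1 lay at position 1, and CFA rats 1 and 8 at position 4. In rats 2, 3, 5 and 6 both sides thus shared a position, so rat and position cannot be told apart. The median scanner signal was 74.6 to 117 on the CFA arrays and 87.9 to 96.4 on the contralateral arrays.

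None of the 9 genes passed the limits for a difference between the CFA and the contralateral side. The methods of the study called a transcript at an unadjusted p of 0.05 or less in limma with a fold change over 2. Of all probes 498 (2.02%) passed these limits, and 0 of the 9 MHC class II genes did. At the p alone, 2659 probes (10.8%) passed and again 0 of the 9 genes. No probe (0.0%) reached an adjusted p of 0.05 (Benjamini-Hochberg over all probes, limma), and the smallest adjusted p on the array was 0.0677. The adjusted p of the 9 genes ran from 0.490 to 0.968. A two-sided exact permutation test that reassigned the 11 arrays in all 462 ways gave p = 0.0801 to p = 0.911 for the 9 genes, where the smallest p it can give is 0.00217. The signals of the sides overlapped in all 9 genes, whereas 1.19% of all probes had no overlap. The mean signal was lower on the CFA side in 7 genes and higher in RT1-DMb and Cd74, and with arrays scaled to their 75th percentile RT1-DMb turned lower and RT1-DOa higher. Among all probes 57.5% had a lower mean on the CFA side. The median log2 difference (CFA minus contralateral) of the 9 genes was -0.11, beside -0.04 for all probes.

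**Figure D1:**
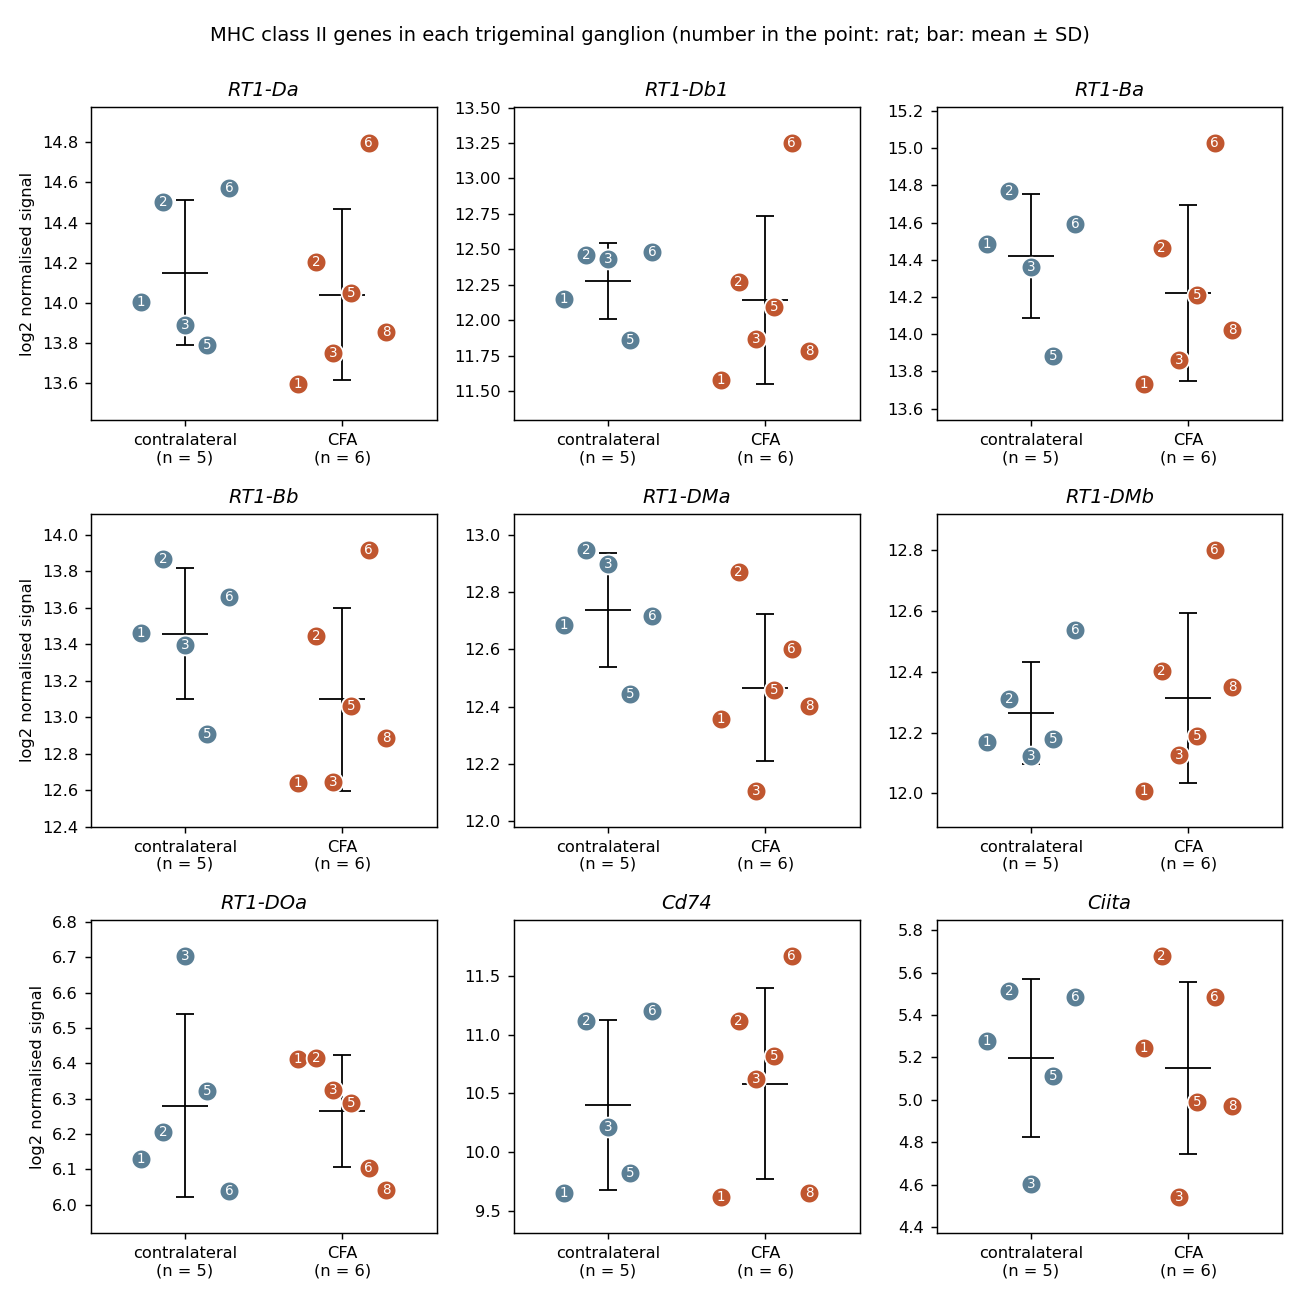
Log2 normalised signal of the 9 MHC class II genes in each ganglion, 1 panel per gene, with the rat number in each point and the mean ± SD of each side as a bar. The sides overlapped in every panel, and rats 2 and 6 lay at the top of both sides in 7 of the 9 panels.

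RT1-Da and RT1-Db1 encode the alpha and a beta chain of RT1-D, the rat counterpart of human HLA-DR. The log2 signal of RT1-Da was 14.00, 14.50, 13.89, 13.79 and 14.57 in contralateral rats 1, 2, 3, 5 and 6. On the CFA side it ran from 13.59 in rat 1 to 14.80 in rat 6 with a median of 13.95. The highest and the lowest ganglion were thus both of the CFA side. The mean was 14.04 ± 0.43 on the CFA side (SD, n = 6) and 14.15 ± 0.36 on the contralateral side (SD, n = 5), a log2 difference of -0.11 (95% confidence interval -0.61 to 0.39, limma adjusted p = 0.852). RT1-Db1 measured 12.15, 12.46, 12.43, 11.86 and 12.48 in the contralateral ganglia, and 11.58 in CFA rat 1, 13.25 in CFA rat 6 and 11.98 at the median of the CFA side. CFA rat 6 stood above all other ganglia for this gene. Its log2 difference was -0.14 (interval -0.73 to 0.46, limma adjusted p = 0.844).

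RT1-Ba and RT1-Bb encode the chains of RT1-B, the counterpart of human HLA-DQ. RT1-Ba measured 14.48, 14.77, 14.36, 13.88 and 14.59 in contralateral rats 1, 2, 3, 5 and 6. In the CFA ganglia it ran from 13.73 (rat 1) over a median of 14.12 to 15.03 (rat 6). Contralateral rat 5 was low and lay among the lower CFA ganglia. The log2 difference was -0.20 (interval -0.72 to 0.32, limma adjusted p = 0.738). RT1-Bb measured 13.46, 13.86, 13.40, 12.91 and 13.66 in the contralateral ganglia. On the CFA side it ran from 12.64 in rats 1 and 3 to 13.92 in rat 6, with a median of 12.97. Its mean was 13.10 ± 0.50 (SD, n = 6) against 13.46 ± 0.36 (SD, n = 5), the widest mean difference of the 9 genes at -0.36 (interval -0.91 to 0.19, limma adjusted p = 0.583). Within rats, RT1-Bb was lower on the CFA side in rats 1, 2 and 3 (-0.82, -0.42 and -0.75) and higher in rats 5 and 6 (0.15 and 0.26).

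RT1-DMa and RT1-DMb encode the peptide exchanger of the pathway, and RT1-DOa a chain of DO, which restrains it. RT1-DMa had the smallest p of the group. It measured 12.68, 12.95, 12.90, 12.44 and 12.71 in the contralateral ganglia of rats 1, 2, 3, 5 and 6, and 12.11 (rat 3) to 12.87 (rat 2) with a median of 12.43 on the CFA side. Of the contralateral ganglia only that of rat 5 lay near the CFA median. The log2 difference was -0.27 ± 0.14 (SE), with an interval of -0.58 to 0.04, an exact permutation p = 0.0801 and a limma adjusted p = 0.490. In rats 1, 2, 3 and 6 the CFA side was lower, and in rat 5 the sides differed by 0.01. RT1-DMb, its partner chain, moved little. Its mean was 12.31 ± 0.28 on the CFA side (SD, n = 6) and 12.26 ± 0.17 on the contralateral side (SD, n = 5), a log2 difference of 0.05 (interval -0.27 to 0.37) whose sign changed with the scaling, as given above. RT1-DOa spanned the narrowest range of the 9 genes, 6.04 to 6.70 over all ganglia, with its highest signal in contralateral rat 3. Its log2 difference was -0.01 (interval -0.30 to 0.27), and its sign too changed with the scaling.

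Cd74, the invariant chain, varied most. Its log2 signal was 9.65, 11.11, 10.21, 9.83 and 11.20 in contralateral rats 1, 2, 3, 5 and 6. In the CFA ganglia it ran from 9.62 (rat 1) over a median of 10.72 to 11.67 (rat 6). Between the lowest and the highest ganglion lay 4.16-fold, and both belonged to the CFA side. The mean was 10.58 ± 0.82 (SD, n = 6) against 10.40 ± 0.72 (SD, n = 5), a log2 difference of 0.18 with an interval of -0.77 to 1.13 (limma adjusted p = 0.873). Without CFA rat 6 this difference was -0.04. Ciita, the transactivator of the group, was measured at 5.28, 5.51, 4.60, 5.11 and 5.48 in the contralateral ganglia and at 4.54 (rat 3) to 5.68 (rat 2), with a median of 5.12, on the CFA side. Rat 3 had the lowest Ciita signal on both sides, and both its arrays lay at position 3 of their slides. The log2 difference was -0.05 (interval -0.54 to 0.45, limma adjusted p = 0.939).

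In the fit without slide or scan day, the interval of 8 of the 9 genes lay within a fold change of 2 in either direction, and that of Cd74 reached 1.13 at its upper end. With slide or scan day as a block it lay within a fold change of 2 in 2 of the 9 genes, with lower ends down to -3.21 and -2.53, both in Cd74, and with slide as a random block in 6. Within slide 2, the signal of CFA rat 1 was below the mean of contralateral rats 5 and 6 in 8 of the 9 genes, where 45.5% of all probes were lower. These log2 differences were -0.59 in RT1-Da, -0.59 in RT1-Db1, -0.51 in RT1-Ba, -0.65 in RT1-Bb, -0.22 in RT1-DMa, -0.35 in RT1-DMb, -0.90 in Cd74 and -0.06 in Ciita, and RT1-DOa was higher by 0.23. They rest on a single CFA ganglion, which had the lowest mean of the 9 genes of all 11 arrays. With the day of the scan as a block 7 of the 9 genes were lower (52.5% of all probes), the largest difference being that of RT1-Bb at -0.82. All contralateral arrays were scanned on 1 day, and CFA rat 1 was the only CFA array of that day. These differences therefore rest on the same CFA ganglion, set against all contralateral ganglia. In neither of these fits with slide or scan day as a block did a gene of the group reach a p of 0.05 (6.77% and 4.39% of all probes did).

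**Figure D2:**
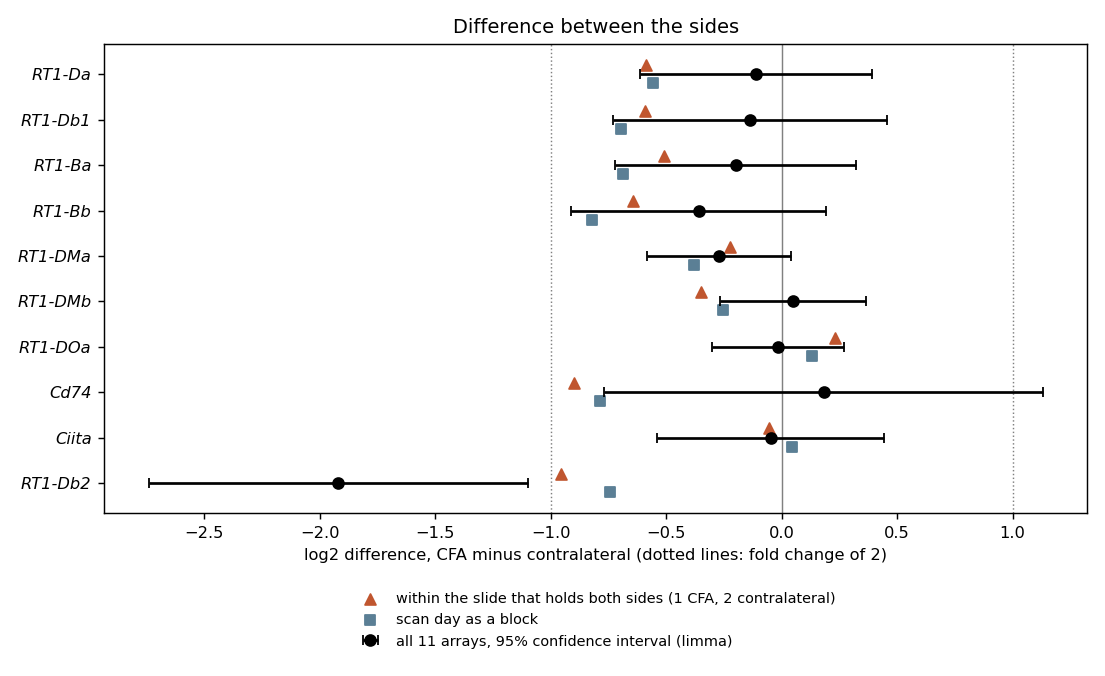
Log2 difference, CFA minus contralateral, of the 9 MHC class II genes and of RT1-Db2 with the 95% confidence interval of limma over all 11 arrays (circles), within the slide that holds both sides (triangles, 1 CFA against 2 contralateral ganglia) and with scan day as a block (squares). The intervals of the 9 genes included 0, and RT1-Db2 lay at -1.92 over all arrays and at -0.96 within the slide. On the CFA side, the squares rest on CFA rat 1 alone, as the triangles do.

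The ganglia differed from each other on both sides. Taking each gene relative to its own mean over the arrays, the 9 genes averaged 0.55 in CFA rat 6, 0.33 in contralateral rat 2, 0.29 in contralateral rat 6 and 0.24 in CFA rat 2 on the log2 scale. The other 7 ganglia lay between -0.01 (contralateral rat 3) and -0.39 (CFA rat 1). So both ganglia of rats 2 and 6 were high and those of rats 1, 3, 5 and 8 were not. Among the 5 rats with both sides, rats 2 and 6 had the highest 2 signals on each side in 7 of the 9 genes, the exceptions being RT1-DMa and RT1-DOa. The same held for 274 of 17495 probes well above background on all arrays (1.57%), and any same pair of rats was highest on both sides in 11.5% of them. This order was noticed in the data and is a description. It takes equal rat numbers in the labels as the same animal, which the check of the signals did not bear out. The 4 arrays of rats 2 and 6 lay on 4 different slides, but all at position 2, where no other array lay. For these 4 arrays, rat and position on the slide cannot be told apart. The sign of the difference between the sides also went by rat: the CFA side was lower in 8 of the 9 genes in rat 1, in 5 in rat 2 and in 7 in rat 3, and higher in 7 of the 9 in rat 5 and in 7 in rat 6. The contralateral ganglia of rats 5 and 6 were those of slide 2.

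**Figure D3:**
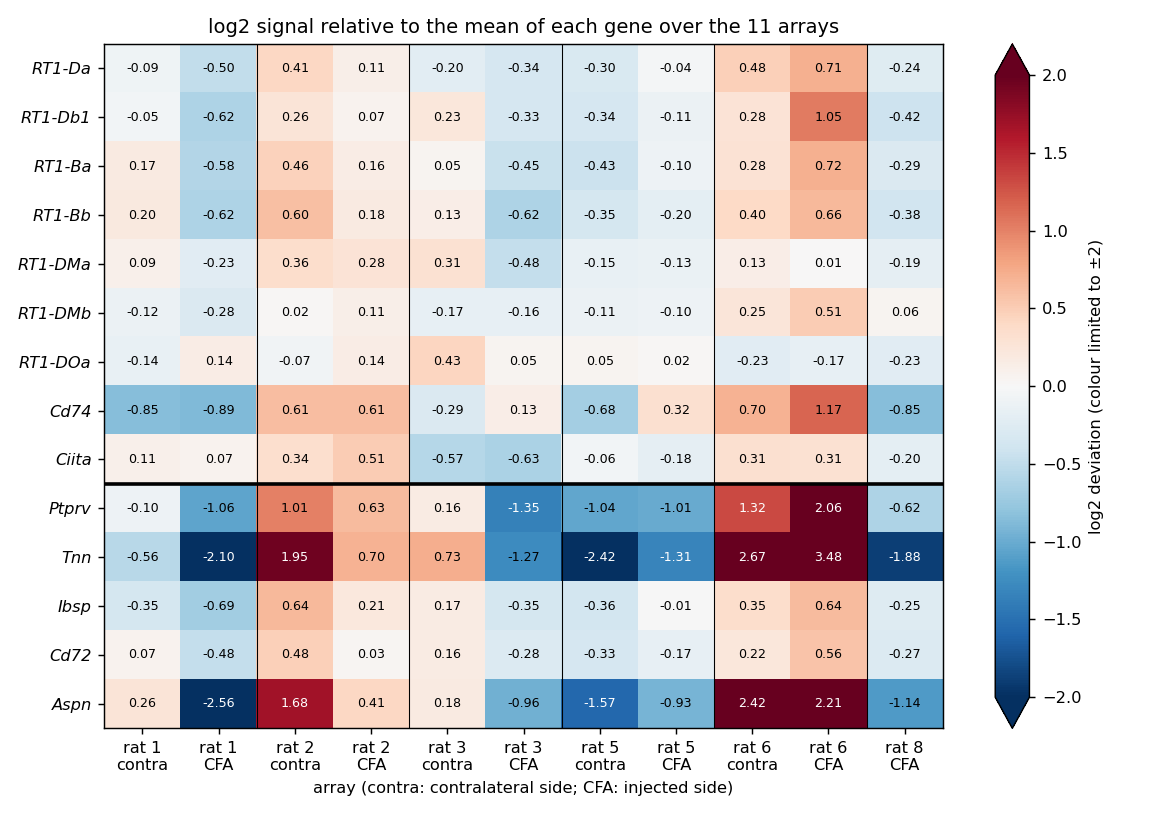
Log2 signal of each gene relative to its own mean over the 11 arrays (rows: the 9 MHC class II genes, and under the line the 5 genes most like their mean), with arrays ordered by rat. Both arrays of rats 2 and 6 are red in most rows, and both arrays of rat 5 and those of CFA rats 1, 3 and 8 are mostly blue.

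The chains of the classical molecules varied together. Over the 11 arrays Pearson's r between RT1-Da, RT1-Db1, RT1-Ba and RT1-Bb lay between 0.89 and 0.98 in all 6 pairs (Spearman's rho 0.90 to 0.99). After the 2 arrays farthest from the median were left out, r was 0.80 to 0.98, and after the mean of each slide was removed it was 0.94 to 0.99. The closest pair was RT1-Ba with RT1-Bb. Cd74 correlated with RT1-Da at r = 0.85 and with RT1-Bb at r = 0.67. RT1-DMa went with RT1-Bb (r = 0.81) more than with its own partner chain RT1-DMb (r = 0.30), a difference that was not tested. Ciita had an r of 0.56 with the mean of the other 8 genes, and RT1-DOa an r of -0.32, the only negative value of the 9. Both sides of a rat are not independent of each other and arrays share slides and rats, so no p is given for these values. In whole tissue, fewer cells of a type and less RNA per cell cannot be told apart. Probes of related genes can also bind each other's RNA, and their sequences were not compared here.

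**Figure D4:**
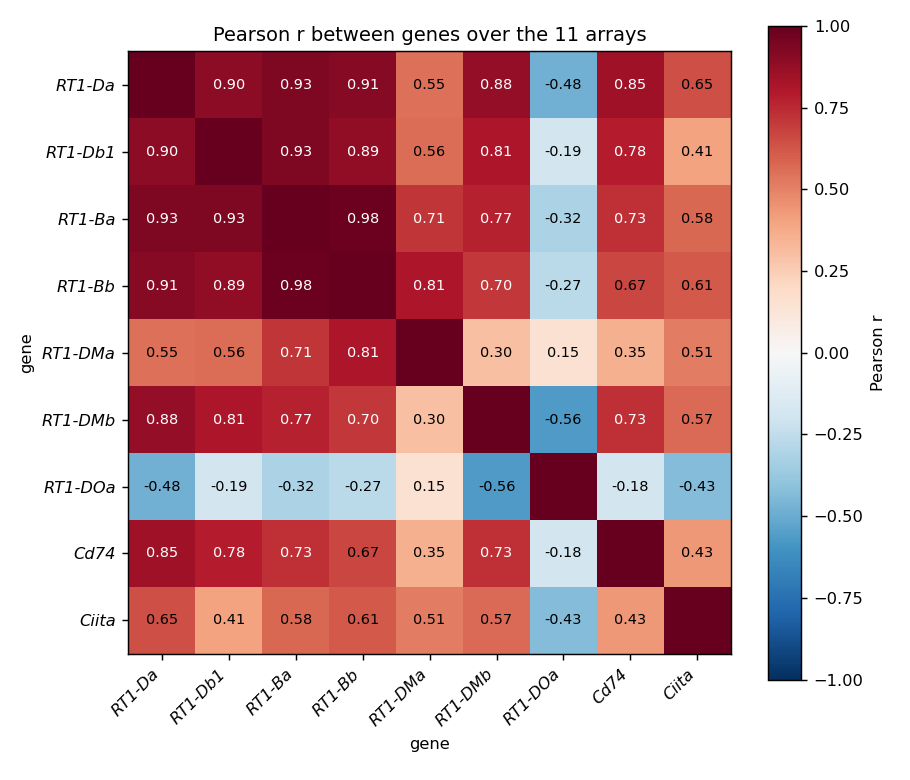
Pearson's r between the 9 MHC class II genes over the 11 arrays. The upper left block of the 4 classical chains holds values of 0.89 to 0.98, and the row of RT1-DOa holds values between -0.56 and 0.15.

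The genes most like the group were sought among 11084 other named mRNAs well above background on all arrays. The highest r with the mean of the 9 genes over the 11 arrays belonged to Ptprv (0.95), Tnn (0.95), Ibsp (0.94), Cd72 (0.93) and Aspn (0.93). Ibsp encodes bone sialoprotein, Ptprv a phosphatase of osteoblasts, Tnn (tenascin-W) and Aspn (asporin) matrix proteins of bone, cartilage and other connective tissue, and Cd72 a receptor of B cells. Tnn ranged 59.8-fold over the arrays, from 5.72 in contralateral rat 5 to 11.63 in CFA rat 6. Dmp1, of osteocytes, and Mmp13, a collagenase of bone and cartilage, were close behind at 0.93 and 0.92. A list of 15 bone and cartilage genes was therefore added after these values had been seen. Of the 13 measured, 12 were well above background on all arrays, and 11 had an r over 0.5 with the mean of the 9 genes (median r = 0.81), beside 7.99% of the 11084 genes ranked (median r = 0.06). The list holds 4 of the 15 genes most like the group, which had prompted it, and of its other 9 genes 7 had an r over 0.5 (median r = 0.72). Their summed linear signal ran from 28239.9 to 54895.7 on the CFA side and from 29864 to 57163 on the contralateral side, with the highest sums in contralateral rat 2, CFA rat 6 and contralateral rats 6 and 3. In CFA rat 2 the sum was 29681, of which Bglap, Col2a1 and Ctsk made up 88.0%, and in 7 of the 13 genes this array was among the 2 highest of its side. The part of bone and cartilage in the values of the group was not tested.

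Markers of immune cells were set beside the group in the same way. Of the 11084 genes ranked, all well above background on every array, 7.99% had an r over 0.5 (median r = 0.06). Of 17 macrophage genes measured, 8 had an r over 0.5 with the mean of the group (median r = 0.44), 15 were well above background on all arrays and 1 on none. Their summed signal was highest in rats 6 and 2 on both sides, with 242097 and 185953 in the contralateral ganglia and 229229 and 222772 in the CFA ganglia, and CFA rat 3 followed closely at 220358. Among neutrophil genes 4 of 6 had an r over 0.5 (median r = 0.51), 3 were above background on all arrays, and the summed signal ran from 5811 to 75029 on the CFA side and from 5941 to 60778 on the contralateral side. The anterior pituitary, which lies beside the ganglion, showed in 6 of 8 genes an r over 0.5 (median r = 0.54) and a sum of 4223 to 307710 on the CFA side and of 2857 to 107393 on the contralateral side. In B cells 3 of 7 genes and in T cells 4 of 12 passed an r of 0.5, with medians of 0.36 and 0.33, and in dendritic cells 2 of 9 with a median of 0.22. The 9 sensory neuron genes, well above background on all arrays, had a median r of -0.36 and the 8 genes of satellite glia and Schwann cells a median of -0.17. The median r was 0.18 for red blood cell genes (4 measured) and 0.23 for skeletal muscle genes (8 measured). For genes of fibroblasts and endothelium it was 0.17 (7 measured). What these cells add to the class II signal was not tested.

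**Figure D5:**
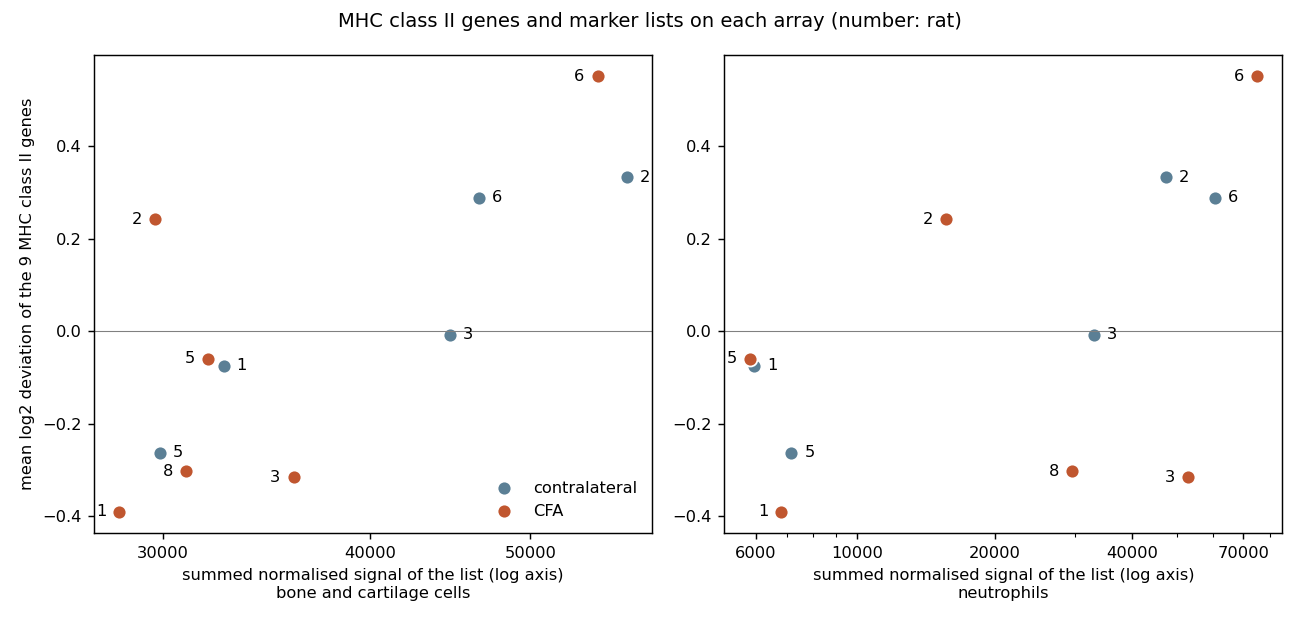
Mean log2 deviation of the 9 MHC class II genes on each array (vertical axis) against the summed normalised signal, on a log axis, of 13 bone and cartilage genes (left) and 6 neutrophil genes (right), with the rat number beside each point. CFA rat 6 and contralateral rats 2 and 6 are high on both axes of both panels, and CFA rat 3 is high in the neutrophil sum at -0.32 on the vertical axis.

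Other class II genes were measured for 2 of the 4 listed, RT1-Db2 and RT1-DOb. RT1-Db2, a further beta chain gene of RT1-D, was the only class II gene past the limits of the study. Its log2 signal was 3.96, 4.21, 3.92, 4.88 and 3.89 in contralateral rats 1, 2, 3, 5 and 6, and 1.31 (rat 6) to 3.43 (rat 1) with a median of 2.15 on the CFA side. The sides did not overlap. The mean difference was -1.92 (interval -2.74 to -1.10, limma adjusted p = 0.196, exact permutation p = 0.00433), and the CFA side was lower in 5 of 5 rats. The probe was well above background in 4 of 5 contralateral and in 0 of 6 CFA ganglia, so the size of the fold is uncertain. With slide as a random block the difference was -1.60 and with the rat as a block -1.80, both past the limits. It was -0.96 within slide 2 and -0.74 when the scan day was a block, short of the limits. These values rest on CFA rat 1 alone, which had the highest RT1-Db2 signal of the CFA side. The difference also fell short of the limits at -0.86 with a floor on low signals, at -0.38 with no background correction and at -0.19 with normexp. This probe was printed in row 450 of 532. When the rows were divided into 4 equal bands, 3.86% of the probes printed once in band 4, where this probe lay, passed as lower and 0.202% as higher. In band 1 the shares were 0.0% lower and 4.43% higher. Of the 9 genes of the group, 3 lay in band 1, 2 in band 2, 3 in band 3 and 1 in band 4. RT1-Db2 is among the transcripts that the study lists for these arrays, so its change is no independent evidence. RT1-Db1, its close relative, was at -0.14.

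RT1-DOb, the partner chain of RT1-DOa, measured 2.09 and 1.65 in contralateral rats 1 and 2, 4.64 in rat 3 and 5.75 in both rats 5 and 6. On the CFA side it ran from 5.12 to 5.78. The gap lay on slide 3, which held contralateral rats 1 and 2 only, where the probe was not well above background. Its log2 difference was 1.42 over all arrays (limma adjusted p = 0.490) and 0.04 within slide 2. RT1-Ha, a class II gene added after the values were seen, had a log2 difference of -0.60 (exact permutation p = 0.0931, limma adjusted p = 0.489) and of 0.37 within slide 2. The promoter of RT1-Db2 (chr20:4541694-4541763, minus strand) and that of RT1-DOb (chr20:4627588-4627657, minus strand) each held both cores and are printed for comparison with RT1-Db1.
RT1-Db2: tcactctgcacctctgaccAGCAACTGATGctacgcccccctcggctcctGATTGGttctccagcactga
RT1-DOb: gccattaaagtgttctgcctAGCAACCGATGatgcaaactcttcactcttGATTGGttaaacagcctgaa
The X box core preceded the Y box core by 20 bases in RT1-Db2 and by 19 in RT1-DOb. Genes with both cores thus included RT1-Da, RT1-Db1 and RT1-DOb, whose sides overlapped, and RT1-Db2, whose sides did not. A link between the cores and the signals was not tested.

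The genes around the class II pathway were taken from lists. Among the factors of the class II promoters (the RFX subunits, NF-Y and Creb1) 0 of 7 passed the limits of the study, with a median log2 difference of -0.02. The smallest p was that of Nfya, a subunit of NF-Y, with a log2 difference of 0.50 (limma adjusted p = 0.465). In interferon-gamma signalling 0 of 12 passed, with a median of 0.06. Ifngr2, a chain of the interferon-gamma receptor, was at -0.32 (exact permutation p = 0.0390, limma adjusted p = 0.437). Among the proteases and ligases that act on class II molecules 0 of 8 passed (median -0.07), and Ctsl, a cathepsin that cleaves the invariant chain in the thymus of mice, was at 0.37 (exact permutation p = 0.0346, limma adjusted p = 0.431) with the opposite sign within slide 2 (-0.28). In the MHC class I pathway 0 of 16 passed (median 0.05), and the smallest p was that of the class I gene RT1-CE16 at 0.39 (limma adjusted p = 0.532). RT1-CE16 was higher on the CFA side in 5 of 5 rats, by 0.14 to 0.86, and with the rat as a block it was at 0.56 (limma adjusted p = 0.362). Rat 8, measured on the CFA side only, had the lowest RT1-CE16 signal of all ganglia (12.46). Over all arrays its exact permutation p was 0.147. Within slide 2 the RT1-CE16 difference was 0.05 and with the scan day as a block 0.01, both resting on CFA rat 1 alone.

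Of all probes 2.02% passed the limits, 285 as higher and 213 as lower on the CFA side. In the lists of co-stimulation and immune cell genes, all 5 genes that passed the limits were higher on the CFA side. They were Pdcd1lg2, a ligand of the inhibitory receptor PD-1, among 7 co-stimulation genes (log2 difference 1.85, limma adjusted p = 0.439), Ccr7, the receptor that leads dendritic cells to lymph nodes, among 9 dendritic cell genes (2.09, adjusted p = 0.420), Pax5, the B cell factor, among 7 B cell genes (1.17, adjusted p = 0.434), and Ltf (lactoferrin) and Cxcr2 (a chemokine receptor) among 6 neutrophil genes (1.21 and 1.50, adjusted p = 0.426 and 0.459). Ltf was well above background in 4 of 6 CFA and 1 of 5 contralateral ganglia. As with RT1-DOb, the lowest signals were those of slide 3. Ccr7 measured 2.23 and 1.80 in contralateral rats 1 and 2 and 4.93, 6.20 and 5.96 in rats 3, 5 and 6, beside 6.06 to 6.51 on the CFA side. Pdcd1lg2 measured 0.99 and 1.45 in contralateral rats 1 and 2 and 5.34 and 5.00 in rats 5 and 6. In contralateral rat 3, on slide 1, it was also low at 2.38 and not well above background. Within slide 2 the difference was 0.27 for Ccr7, 0.30 for Pax5, 0.57 for Ltf, 0.04 for Cxcr2 and -0.39 for Pdcd1lg2. All 5 probes lay in band 1 of the array, where 4.43% of the probes printed once passed as higher and 0.0% as lower. Without contralateral rat 1 none of the 5 passed, at 1.60 for Ccr7, 1.34 for Pdcd1lg2, 0.88 for Pax5 and 0.83 for Ltf and Cxcr2, and with the rat as a block only Ccr7 did (1.82 for Pdcd1lg2, 1.19 for Pax5, 1.20 for Ltf and 1.46 for Cxcr2). Median log2 differences were -0.02 for co-stimulation, -0.17 for dendritic cells, -0.03 for B cells and 0.34 for neutrophils. No gene passed among 17 macrophage genes (median -0.06, smallest p that of the Fc receptor Fcgr1a at -0.33, limma adjusted p = 0.481) or 12 T cell genes (median -0.17, Cd8a at -0.46, limma adjusted p = 0.473). Fcgr1a kept its sign within slide 2 (-0.70) and so did Cd8a (-0.78). Both values rest on CFA rat 1 alone, which had the lowest signal of all ganglia for each of these genes.

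The labelled tissue was checked against its markers. Calca, the precursor of the neuropeptide CGRP, had log2 signals of 17.03 to 17.71 over all ganglia and a difference of 0.26 (exact permutation p = 0.0303, limma adjusted p = 0.446), which was 0.10 with arrays scaled to their 75th percentile, and 0 of 9 sensory neuron genes passed the limits. Of 8 genes of satellite glia and Schwann cells 0 passed. The smallest p was that of Kcnj10, a potassium channel of satellite glia, whose probe was well above background in 2 of 5 contralateral and 0 of 6 CFA ganglia (log2 difference -0.81, limma adjusted p = 0.489, and 0.93 within slide 2). Without CFA rat 1 it passed at -1.13. No gene passed among red blood cell (4 measured, Alas2 at -0.44), pituitary (8, Lhb at 0.80), skeletal muscle (8, Mb at 0.56), fibroblast and endothelial (7, Cldn5 at -0.27) or bone and cartilage genes (13). The medians of these lists were -0.13, 0.02, -0.22, -0.00 and -0.16 in that order, with 0.01 for sensory neurons and -0.02 for glia.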

How the data were processed

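The intensity values were deposited by the authors as scanner output (Agilent Feature Extraction 11.0.1.1, design build rn4), a background-subtracted, spatially detrended processed signal on a linear scale with no normalisation between arrays. The authors also deposited a table of quantile-normalised linear intensities, used as an alternative. Control spots (1417 of 43553) were left out, outlier spots (1.38%) were set to missing, and no other spot was saturated. The log2 signal was quantile normalised, spots of a probe were averaged, and all 24684 probes were tested in limma 3.58.1 (R 4.3.3) without covariates, with p-values adjusted over all probes. Tables were made in Python 3.11.15 (pandas 2.3.3, scipy 1.17.1). The number of arrays limits the precision. Symbols came from a RefSeq table, through accessions (14274 of 15323 mRNA probes), and gene promoters from the same source.

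The members and lists were chosen with earlier results of these data known. The text names all members, class II partners, up to 2 genes past the limits of the study per list (or the one with the smallest p) and the 5 genes most like the members. The lists covered class II partners, promoter factors, interferon-gamma signalling, antigen processing, co-stimulation, MHC class I, macrophages, dendritic cells, B cells, T cells, neutrophils, red blood cells, sensory neurons, satellite glia and Schwann cells, anterior pituitary, skeletal muscle, and fibroblasts and endothelium. One gene of the lists is not reported here. A gene was represented by its probe with the highest mean signal. The fit was tested on simulated data. Equal rat numbers in the labels were taken to mark the same animal. The signals did not bear this pairing out. With the mean of each side subtracted, r between the sides of a rat ran from -0.083 (rat 2) to 0.133 (rat 6). It was over 0.1 for 1 of the 5 animals, and in 0 of 5 was the own contralateral array the best match. With the rat as a random block the consensus correlation was -0.023. All comparisons within rats therefore rest on the labels. Slide, position on the slide and scan day came from the file headers.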

Additional observations from a re-analysis of the deposited data

Results flagged for a closer look

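Single arrays that stood apart from the others of their side were sought in 66 sets of values, of which chance alone sets apart about 1 in 20, and 3 were found, none of them in an MHC class II gene. The class I gene RT1-CE16 had a log2 signal of 13.24 in contralateral rat 2, and the other contralateral ganglia lay between 12.79 and 12.91. Fcgr1a, an Fc receptor of macrophages, had a log2 signal of 11.08 in contralateral rat 5, and the other contralateral ganglia lay between 11.47 and 11.51. Kcnj10, a potassium channel of satellite glia, had a log2 signal of 3.33 in contralateral rat 3, and the other contralateral ganglia lay between 2.70 and 2.84.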

How the results depend on the processing

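Over 25 alternatives the 9 MHC class II genes gave 225 differences, 216 of them with a test, of which 0 passed the limits of the study and 30 changed sign, all in RT1-DMb, RT1-DOa, Cd74 and Ciita. An unadjusted p of 0.05 or less was reached in 5 of them, 4 in RT1-DMa (with scaling to the 75th percentile, with a floor on low signals, without CFA rat 2 and without contralateral rat 5) and 1 in RT1-Bb (without CFA rat 6). The fit with a floor used the same scaling and gave the 9 genes the same differences. Slide 2 alone and the slide as a fixed block also gave the same differences. These counts thus hold some values more than once. The count of all probes past the limits, 498, was 250 with a floor on low signals (164 higher, 86 lower), 233 with slide as a random block (128 higher, 105 lower), 47 with no background correction (28 higher, 19 lower) and 16 with normexp (11 higher, 5 lower). It was 330 to 796 when each array was left out in turn, with 330 without contralateral rat 1, 771 without contralateral rat 5 and 796 without contralateral rat 6. The cause was not tested. The median log2 difference of the 9 genes was -0.508 within slide 2 and with the slide as a fixed block, -0.558 with a block for the scan day, and -0.26 to -0.0333 when each array was left out.

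The log2 difference of RT1-DMb was -0.0143 with scaling to the 75th percentile and with a floor, -0.134 with no background correction and -0.131 with normexp, and that of RT1-DOa was 0.0162, 0.0162 and 0.0197 in the first 3 of these. Within slide 2 and in the fit with the slide as a fixed block, the differences that turned were those of RT1-DMb (-0.348), RT1-DOa (0.233), Cd74 (-0.899), RT1-Ha (0.365), Ifngr2 (0.0933), Ctsl (-0.281), Pdcd1lg2 (-0.391), Kcnj10 (0.93), Lhb (-1.03) and Mb (-0.0909). With a block for the scan day they were RT1-DMb (-0.255), RT1-DOa (0.133), Cd74 (-0.786), Ciita (0.0446), RT1-Ha (0.56), Ctsl (-0.0564) and Kcnj10 (0.799), and with slide as a random block RT1-DMb (-0.0632), RT1-DOa (0.0378) and Cd74 (-0.12). When each array was left out, RT1-DMb ran from -0.0477 to 0.118, RT1-DOa from -0.0754 to 0.0908, Cd74 from -0.0359 to 0.382 and Ciita from -0.197 to 0.0741. The 6 other genes named as past the limits (RT1-Db2, Pdcd1lg2, Ccr7, Pax5, Ltf and Cxcr2) fell short of them 52 times in all.

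In the fit that took the rat as a replicate block, 0 of the 9 genes and 370 of all probes passed (181 higher, 189 lower). In this paired fit their median difference was -0.0652, RT1-DOa turned to 0.0297, and no call on the 9 genes changed. The mean over all probes of a gene could not differ from the values given, since each of the 9 genes had 1 probe. The files hold no mean spot signal, so the fits without background correction and with normexp used the median spot signal.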
